A study of Mus musculus with 12 samples.

Results

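Positions bound by hnRNP H within introns were followed in mouse striatum: 100-nt peaks that the authors listed at the same chromosome, start and strand both after saline and after methamphetamine, and whose centre lay in an intron by the regions given in those lists. The rule found 3281 such shared intron peaks among 14711 listed positions. They made up 48.9% (Wilson 95% interval 47.7 to 50.1) of the intron positions in the methamphetamine list and 47.6% (46.4 to 48.8) of those in the saline list. Presence in both lists, and so the CLIP signal itself, chose them. Their CLIP levels are therefore descriptions.

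hnRNP H is an RNA-binding protein of the nucleus, encoded by Hnrnph1 and the closely related Hnrnph2, and it recognises runs of guanine through RNA-recognition domains that it shares with hnRNP F. Runs of guanine in introns are known as splicing signals, and hnRNP H bound to them can raise or lower the use of a neighbouring splice site. The striatum, where dopamine acts on projection neurons, is a main site of action of the psychostimulant methamphetamine, which releases dopamine from nerve endings.

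In CLIP-seq, protein and RNA were cross-linked, hnRNP H was precipitated with an antibody, and the RNA it carried was sequenced from the part of a membrane between 50 and 75 kDa. RNA-seq was made from tissue that was set aside from the same pools before cross-linking. All mice were wild-type C57BL/6J animals whose fathers were heterozygous for an Hnrnph1 mutation and whose mothers were C57BL/6J, aged between postnatal day 50 and 100, and all were injected with saline on 2 days. On day 3 the saline group received saline again and the methamphetamine group 2 mg/kg methamphetamine, each intraperitoneally, and whole striata were taken 30 min later. Each group had 3 replicates, and each replicate pooled 4 mice, 2 females and 2 males, so a value is an average over animals. The design asks where hnRNP H is bound and how binding and RNA levels differ 30 min after the drug.

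Sequence could be read for 185 members (5.64%), those that lay wholly within 1 exon of a GENCODE M21 transcript, such as a retained intron (105 members), or within a RefSeq promoter window on GRCm38 (39 members). The following 8 members are shown because they span the range of guanine content and include the member with the highest mean level. Guanine runs of 3 or more are in capitals, and every sequence is that of the bound strand. The Izumo4 member (chr10:80704485-80704584, plus strand) held 12 separate guanine runs. The Psd member (chr19:46326288-46326387, minus strand), in a gene for an exchange factor of small GTPases, held 7 runs, the longest of 11 bases. Neighbouring members in an intron of Phb2, which encodes the mitochondrial scaffold prohibitin 2 (chr6:124715233-124715332 and chr6:124715333-124715432, plus strand), lie over the annotated snoRNA gene Gm23547. The Srsf6 member (chr2:162932429-162932528, plus strand) lies in a gene for an SR splicing factor, and the Tspan32 member (chr7:143006547-143006646, plus strand) in one for a tetraspanin. The last pair held no run of 3: a Ckap5 member over the snoRNA gene Snord67 (chr2:91596171-91596270, plus strand), and a member on the strand opposite to the sulfotransferase gene Sult2b1 (chr7:45742550-45742649, plus strand), which is read from a promoter window.
Izumo4: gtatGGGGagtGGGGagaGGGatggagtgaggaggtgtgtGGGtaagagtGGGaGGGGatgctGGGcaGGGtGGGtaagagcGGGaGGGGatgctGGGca
Psd: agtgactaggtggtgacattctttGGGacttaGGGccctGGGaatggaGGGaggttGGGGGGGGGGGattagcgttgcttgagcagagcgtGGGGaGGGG
Phb2 upstream member: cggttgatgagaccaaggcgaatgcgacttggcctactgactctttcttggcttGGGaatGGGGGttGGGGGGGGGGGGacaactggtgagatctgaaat
Phb2 downstream member: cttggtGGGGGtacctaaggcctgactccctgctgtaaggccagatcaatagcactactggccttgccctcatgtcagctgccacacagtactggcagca
Srsf6: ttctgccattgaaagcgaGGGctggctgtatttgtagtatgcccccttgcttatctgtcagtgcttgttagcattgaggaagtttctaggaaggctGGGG
Tspan32: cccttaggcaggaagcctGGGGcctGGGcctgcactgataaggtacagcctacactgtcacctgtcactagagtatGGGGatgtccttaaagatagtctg
Ckap5: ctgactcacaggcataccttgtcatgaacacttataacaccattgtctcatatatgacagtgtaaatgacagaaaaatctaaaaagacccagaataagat
Sult2b1: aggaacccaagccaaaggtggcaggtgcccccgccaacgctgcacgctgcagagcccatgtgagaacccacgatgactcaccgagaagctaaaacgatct

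Most of the members with sequence carried guanine runs. GGG was present in 166 of 185 members (89.7%, Wilson 95% interval 84.5 to 93.3) and GGGG in 137 (74.1%, 67.3 to 79.8). The complement, CCC and CCCC, which are the same letters on the other strand, were present in 62.7% and 25.9%. A member held a median of 3 separate runs of at least 3 guanines, up to 12, and the longest run had 13 bases. In the first 100 bases of 32851 RefSeq promoter windows, taken as regions of the same length, GGGG was present in 32.8% and CCCC in 33.3%. In intron positions listed after 1 treatment only, GGGG was present in 60.2% (54.3 to 65.8, n = 274) for the methamphetamine list and 57.6% (50.7 to 64.1, n = 205) for the saline list. GGG was present in 91.2% and 90.2% of the same positions, against 89.7% of the members. These shares describe the few positions whose sequence is in an annotated transcript or promoter, and the difference between them was not tested.

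GGGG was most often present in the peak, and starts of GGG were most frequent just before the peak and at its upstream end. For the 105 members with a further 100 nt of sequence on each side, GGGG was present in 65.7% of peaks, 50.5% of upstream windows and 41.9% of downstream windows. GGG was present in 88.6% of peaks and of upstream windows and in 81.9% of downstream windows. CCCC was present in 26.7% of peaks, 22.9% of upstream windows and 32.4% of downstream windows. For 70 members with 200 nt on each side, the share of positions that start GGG was highest in the 20 nt around 70 nt upstream of the centre, at 7.36%. It was 2.29% and 2.43% at the 2 ends of the window. In the bins wholly inside the peak it was 6.14%, 4.29%, 5.57% and 4.14% from upstream to downstream, and around 90 nt downstream it was 4.43%. Members in host genes such as Pde10a, Dlg4 and Ankfy1 started multiples of 100 nt apart. The centre is thus the centre of a window, and need not be the site of binding.

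**Figure D1:**
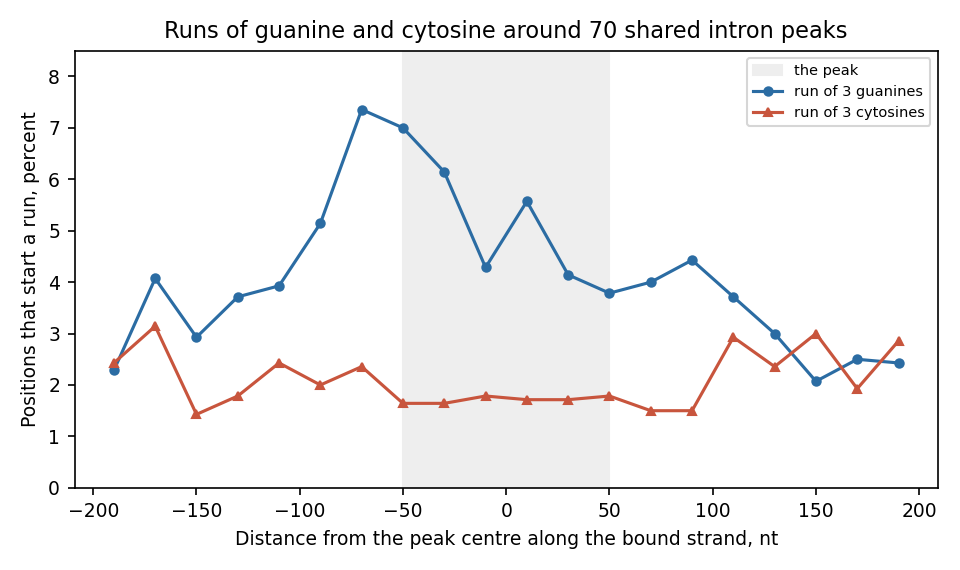
Share of positions that start a run of 3 guanines (circles) or 3 cytosines (triangles), in percent, in bins of 20 nt by distance from the peak centre in nt along the bound strand, for the 70 members with 200 nt of sequence on each side; the grey band marks the peak. The guanine line reaches 7.36% at 70 nt upstream and the cytosine line stays between 1.43% and 3.14%.

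The libraries did not stand apart by treatment. The first principal component of the RNA-seq libraries, with 65.6% of the variance, placed saline replicates 1 and 3 and methamphetamine replicate 2 on one side (called set A) and the other 3 on the other (set B); the sets were defined from the data and cross treatment. Depth was 423057 to 1635338 reads over all counted positions per CLIP library and 3935160 to 5091839 reads per RNA-seq library. The summed level of 11 striatal projection neuron markers was 11244 to 12809 CPM in set A and 8165 to 9082 CPM in set B, and none of the markers was at 0 in every library, so the defining markers of the labelled tissue were present. Astrocyte markers went the other way, with 2217 to 2404 CPM in set A and 3073 to 3496 CPM in set B, as did microglia markers, with 255 to 273 and 301 to 337 CPM. Cortical neuron and oligodendrocyte markers overlapped between the sets. The 12 choroid plexus markers summed to 5357 CPM in methamphetamine replicate 2 and to 146 to 287 CPM in the other 5 libraries. Their part in the results was not tested.

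Most members had few reads. Of the 3281 members, 3266 had a line in the count table and 15 had none. A member had a median of 14.1 CPM (mean of 6 libraries), with a range of 1.46 to 1025. CPM are counts scaled to the library's reads at all counted positions, as defined with the processing. More than 3 reads were counted in all 6 libraries for 1505 members and in none for 0 members. By library, members without a read numbered 4 in saline replicate 3, the deepest library, and 314 in saline replicate 2, the shallowest. The authors' own signal value had a median of 1.84 (0.71 to 5.61) in the saline list and 1.78 (0.82 to 5.90) in the methamphetamine list.

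At the edge of the rule lay members with q-values near 0.05 in the authors' lists. The largest was that of a Naaladl2 member, with a q of 0.0496 in the methamphetamine list. Just outside were positions of 1 list that overlap a position of the other without the same start. Of 7036 such intron positions 66 did so, the closest a Ncald position and a D5Ertd615e position, each 2 nt away, and a Tapbp position, 5 nt away.

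The highest member lay in Phb2 over the snoRNA gene. It had 454, 1671 and 441 CPM in saline replicates 1, 2 and 3 and 2335, 647 and 601 CPM in methamphetamine replicates 1, 2 and 3. Its upstream neighbour, 100 nt away, had 389, 846 and 429 CPM after saline and 1815, 568 and 504 CPM after methamphetamine. The groups overlapped for both, and the sequences above show that the upstream member carries a guanine run of 12 bases while the downstream one carries a single run of 5. Both lie within 250 nt of the 5′ splice site of a 418-nt intron. The upstream member is 120 nt from the 5′ and 299 nt from the 3′ splice site. The downstream one is 220 and 199 nt from them, so it is nearer to the 3′ site.

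The next members were in genes of other kinds. E2f8, a transcriptional repressor of the cell cycle, had a member with 1144, 321 and 1172 CPM after saline and 395, 1889 and 306 CPM after methamphetamine (chr7:48870130-48870229, minus strand). The 3 libraries of set A were at 1144 CPM or more and the 3 of set B at 395 CPM or less. A member in Cp, the gene of the ferroxidase ceruloplasmin, lay 30 nt from a 5′ splice site (chr3:19987555-19987654, plus strand) and had 283, 3189 and 191 CPM after saline and 151, 171 and 95.7 CPM after methamphetamine. Saline replicate 2 alone held 58.1% of its reads. Tbc1d23, which acts in vesicle capture at the Golgi, had a member with 245, 657 and 237 CPM after saline and 886, 272 and 1649 CPM after methamphetamine (chr16:57193163-57193262, minus strand). Here set B was above set A.

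The member in Gpm6b, a membrane glycoprotein of neurons and glia (chrX:166378512-166378611, plus strand), had 555, 442 and 432 CPM after saline and 265, 663 and 534 CPM after methamphetamine. The member in Dlgap2, a postsynaptic scaffold (chr8:14306766-14306865, plus strand), had 351, 189 and 283 CPM after saline and 287, 355 and 210 CPM after methamphetamine. The groups overlapped in both. In Il1rapl2, a receptor accessory protein, the member (chrX:138840009-138840108, plus strand) ranged from 162 to 447 CPM. In Wdr35, a part of the ciliary transport machinery, the member (chr12:9007093-9007192, plus strand) had 974 CPM in saline replicate 2 and 78.8 to 178 CPM in the other 5 libraries.

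The tenth member by level did not give an independent count. A member of the phosphatase gene Inpp4b (chr8:81880457-81880556, plus strand) had 12, 428 and 6 reads in the saline replicates and 455, 2 and 17 in the methamphetamine replicates. A member of the same gene at chr8:82002357-82002456 had the same 6 counts. Among 3251 members with at least 20 reads in all, 75 shared their 6 counts with another member, 11 of them with one they did not overlap, such as members in Dynlt1b and Dynlt1f. How reads with several places in the genome were counted is not given in the sources used here, so the levels of such members are uncertain.

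**Figure D2:**
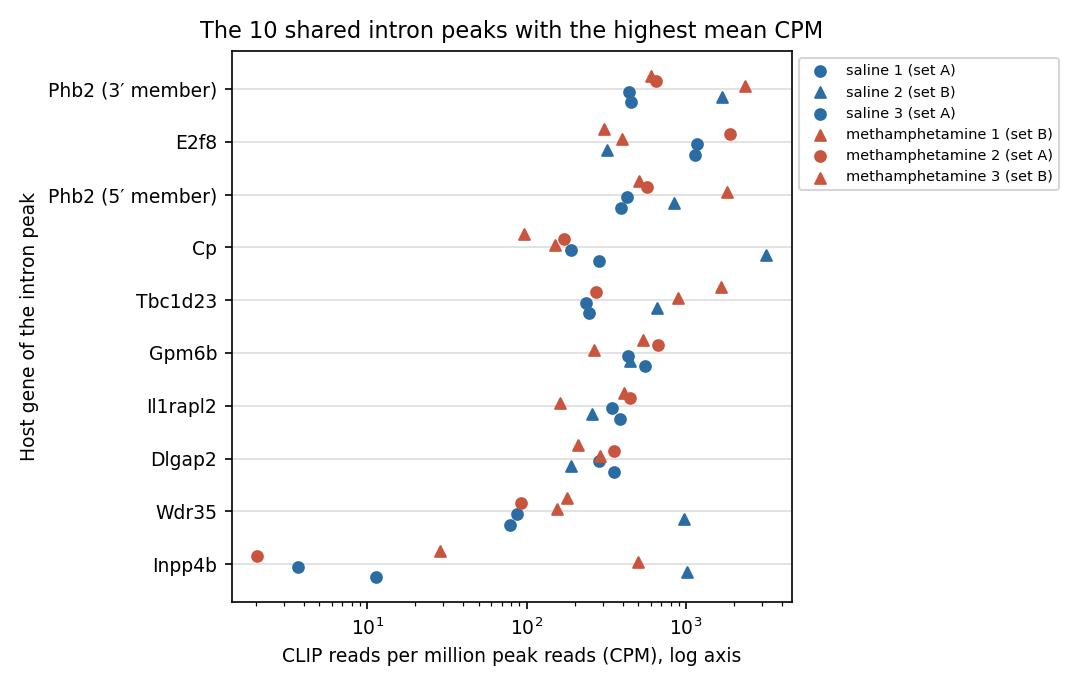
CLIP level in CPM (log axis) of the 10 members with the highest mean, 1 point per library; blue is saline, red methamphetamine, circles library set A and triangles set B. Single libraries stand out at Cp and Wdr35 (saline replicate 2, at 3189 and 974 CPM), and the 2 colours overlap at each member but Cp.

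Few members held much of the reads, and how much varied by library. The 10 highest took 4.77%, 12.1% and 4.51% of the member reads in saline replicates 1, 2 and 3 and 11.8%, 5.97% and 6.27% in the methamphetamine replicates. The 33 highest, 1% of the members, took a mean of 13.5% ± 6.19 (SD, n = 3) after saline and 13.6% ± 3.28 (SD, n = 3) after methamphetamine. With groups of 3 the smallest p that the exact permutation test can give is 0.1, and this difference of 0.089 percentage points had p = 1.0 (two-sided; adjusted over the 3 shares tested, 1.0). The difference turned negative without saline replicate 1 (-1.74), saline replicate 3 (-1.65) or methamphetamine replicate 1 (-1.67), and within set B (-5.56).

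Members took under 10% of the reads at all counted positions in each library. There were 147438 distinct counted positions, against 14711 listed as peaks, and overlapping positions can share reads. Members held 8.17%, 7.87% and 8.02% of these reads in saline replicates 1, 2 and 3 (mean 8.02% ± 0.148, SD, n = 3). In the methamphetamine replicates they held 5.91%, 8.55% and 7.2% (mean 7.22% ± 1.32, SD, n = 3). The groups overlapped, and the exact permutation test gave p = 0.4 (two-sided; adjusted over 3 shares, 0.6). CLIP levels in both groups chose the members, so the p-values of the 3 shares are descriptions. The difference of -0.804 percentage points was -0.147 without methamphetamine replicate 1, 0.453 within set A and -1.32 within set B. As a share of reads in listed positions only, it was -2.11.

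Among members with sequence, reads in members with GGGG made up 77.6%, 79.5% and 79.0% after saline and 89.9%, 81.9% and 80.1% after methamphetamine. Each methamphetamine library was above each saline library. The difference of 5.26 percentage points had p = 0.1 in the exact permutation test, the smallest value 3 against 3 can reach, and 0.3 after adjustment over 3 shares. Without methamphetamine replicate 1 the difference was 2.29 percentage points. Without the 1% of members with the most reads it was 5.20, with p = 0.2 in the exact permutation test. There the split by treatment was no longer the most extreme one.

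No member passed the adjusted threshold between treatments in the fit across all positions. The edgeR quasi-likelihood test with Benjamini-Hochberg adjustment was run on 10358 positions, of which 2321 were members. At an adjusted p below 0.05 it called 0 members, and 0.0% of all positions tested; the smallest adjusted p of a member was 0.9998. At an unadjusted p below 0.05 it called 30 members (1.29%), 16 higher and 14 lower after methamphetamine, against 3.35% of all positions tested. DESeq2 likewise called 0 members after adjustment, and 24 at an unadjusted p. The median log2 fold change was 0.06 in members and 0.05 in all positions tested, with a median standard error of 0.57 for a single member. The count of 30 was 58 without saline replicate 2, 76 without methamphetamine replicate 2, 16 without methamphetamine replicate 1 and 13 without methamphetamine replicate 3. Since CLIP levels in both groups chose the members, these counts are descriptions.

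In TMM-scaled CPM, the values of the 2 groups were fully separate for 76 members higher after methamphetamine (3.27%, against 4.33% of all positions tested). They were fully separate for 64 lower (2.76%, against 3.62%). Overlap of the groups at a named member is described elsewhere on CPM without TMM scaling. Separation by library set, also in TMM-scaled CPM, was more frequent. In 319 members (13.7%, against 14.1% of all positions tested) each library of set A was above each of set B, and in 223 (9.61%, against 12.1%) each of set B was above each of set A. The members' shares are near or below those of all positions in each of these counts.

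**Figure D3:**
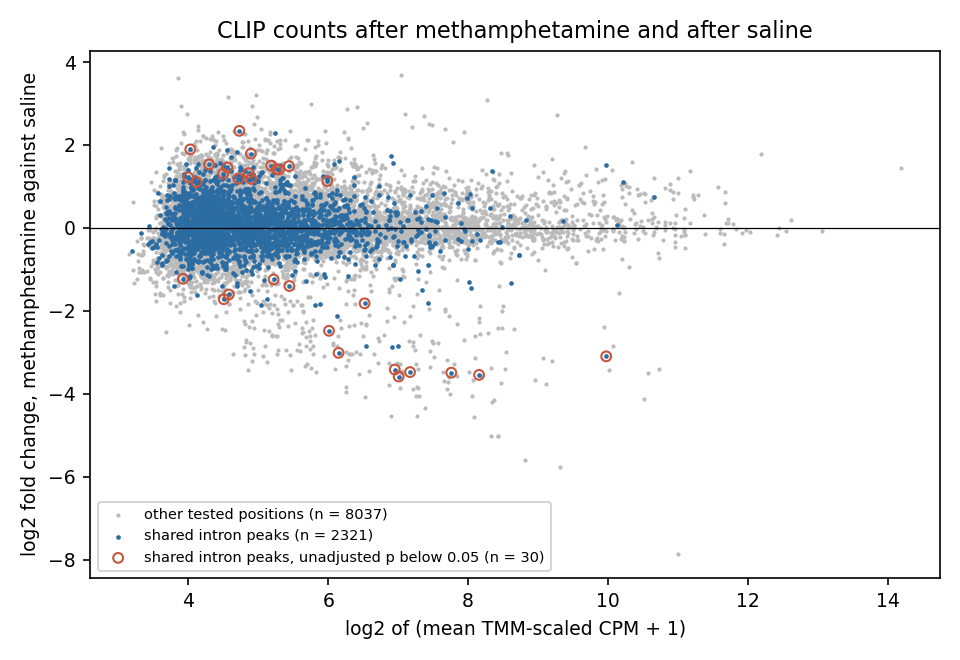
log2 fold change of CLIP counts after methamphetamine against saline, by the log2 of the mean TMM-scaled CPM plus 1, for 2321 members (blue) and 8037 other tested positions (grey); red rings mark the 30 members with an unadjusted p below 0.05. Member points centre near 0, with a median of 0.06.

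The members with the smallest unadjusted p were in genes with varied roles. Nxf1 encodes the main export receptor of messenger RNA, and its member lay 65 nt from a 5′ splice site (chr19:8757274-8757373, plus strand). It had 8.5, 2.4 and 3.7 CPM after saline and 15.4, 14.3 and 18.5 CPM after methamphetamine, a log2 fold change of 1.89 ± 0.61 (SE; edgeR unadjusted p = 0.0149, adjusted 0.9998). The groups did not overlap. A member of the ubiquitin ligase gene Trip12 (chr1:84838390-84838489, minus strand) had 8.5, 7.1 and 12.8 CPM after saline and 18.7, 25.5 and 18.5 CPM after methamphetamine, again without overlap. A member of the olfactory receptor gene Olfr1272 (chr2:90289864-90289963, minus strand) had 2.8, 7.1 and 9.2 CPM after saline and 39.6, 13.3 and 25.2 CPM after methamphetamine. None of these passed the adjusted threshold.

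Lower values after methamphetamine were led by Nrp2, a semaphorin receptor, whose member lay 97 nt from a 3′ splice site (chr1:62748986-62749085, plus strand). It had 47.5, 37.8 and 32.4 CPM after saline and 13.2, 14.3 and 15.1 CPM after methamphetamine, a log2 fold change of -1.24 ± 0.42 (SE; edgeR unadjusted p = 0.0183, adjusted 0.9998), and leaving out a library moved this between -1.43 and -1.14. A member of the ubiquitin ligase gene Mid1 (chrX:169820500-169820599, plus strand) had 33.2, 165 and 29.4 CPM after saline and 11, 20.4 and 6.7 CPM after methamphetamine. Its log2 fold change was -2.48, and -1.02 without saline replicate 2. A member of the kinesin gene Kif9 (chr9:110486959-110487058, plus strand) had 31.3, 210 and 16.5 CPM after saline and 6.6, 19.4 and 5.0 CPM after methamphetamine. Its log2 fold change was -3.01, and -0.96 without saline replicate 2, so this 1 library held most of the difference in both. Host RNA of Mid1 went the other way, with a log2 fold change of 1.06 ± 0.36 (SE; limma unadjusted p = 0.0176, adjusted 0.9998). Its level ranged between 4.32 and 5.20 log2 CPM in the saline libraries and between 5.30 and 6.60 in the methamphetamine libraries. The RNA log2 fold change was 0.55 ± 0.49 (SE) for Nrp2 and -0.07 ± 0.45 (SE) for Kif9. How RNA and CLIP differences relate was not tested.

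Without the filter on low counts, 10 of 3266 members passed the adjusted threshold of edgeR, against 0.295% of the 140449 positions then tested. All of them but the Hacd4 member had also passed the filter and were tested with it, where no member passed the threshold. The filter had thus removed only the Hacd4 member. All 10 were lower after methamphetamine, and each had 1 saline library with 58.1% to 81.8% of its reads. That library was saline replicate 2 for 6 members, among them the Cp member, and saline replicate 3 for 4. The Gzmk member, in a gene for a protease of cytotoxic lymphocytes (chr13:113194909-113195008, minus strand), had 111, 5 and 723 reads in the saline replicates and 7, 38 and 0 in the methamphetamine replicates. The Hand2os1 member, in a long noncoding RNA gene (chr8:57297018-57297117, minus strand), had 33, 417 and 55 reads in the saline libraries, compared with 33, 27 and 13 in the methamphetamine libraries. The Ednra member, in the gene of an endothelin receptor (chr8:77714432-77714531, minus strand), had 103, 1 and 496 saline reads and 5, 37 and 4 methamphetamine reads. These 3 examples were picked with their values in view. In each of them at least 1 saline library had fewer CPM than the highest methamphetamine library.

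The members fell in 2173 host genes, of which 1622 held 1 member and 14 held 10 or more. Those 14 genes held 190 members. Pde10a, the phosphodiesterase enriched in striatal projection neurons, held the most, with 27. Rbfox1 (a neuronal splicing factor), Pde2a (another cyclic nucleotide phosphodiesterase), Phactr1 (a regulator of phosphatase and actin) and Dlg4 (the postsynaptic scaffold PSD-95) held 15 each. They were followed by the kinase gene Sik3 and the spectrin gene Sptbn4 with 14, the endosomal protein gene Ankfy1 with 13, the chloride transporter gene Slc12a5 with 12 and 5 genes with 10 each, among them the glycolytic enzyme gene Gpi1.

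Within a host gene the members were often bunched. In Pde10a all 27 lay between 253 and 453 kb from the start of a 461-kb gene, so the first 253 kb held 0, and 21 were of the authors' distal intron type. In Rbfox1 the 15 members, all distal, were spread from 42.5 to 1175 kb of a 1526-kb gene. In Ankfy1 all 13 lay between 75.3 and 77.3 kb from the start of an 82.1-kb gene. In Sik3, 13 of the 14 lay between 121 and 125 kb from the start, and the other one at 0.751 kb. In Dlg4 the 15 lay between 3.25 and 13.1 kb of a 30.6-kb gene, only 2 of them distal, and in Sptbn4 1 of 14 was distal.

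**Figure D4:**
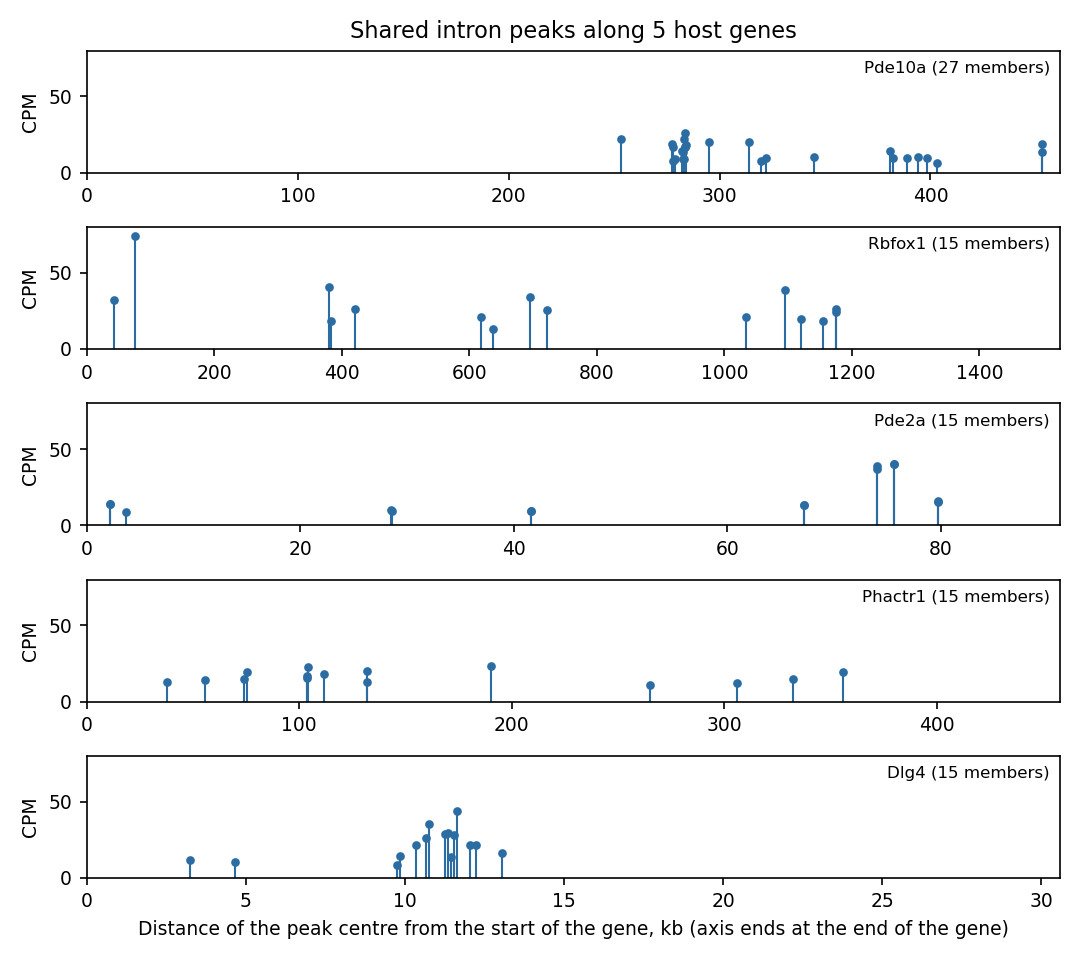
Mean CLIP level (CPM, bars from 0) of each member by the distance of its centre from the start of the gene in kb, for the 5 host genes with the most members; each axis ends at the end of the gene. Pde10a has no member in its first 253 kb, and Rbfox1 has the highest of these members, at 74.4 CPM.

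The summed levels in these genes overlapped between treatments. The members of Pde10a had a summed 387, 177 and 436 CPM after saline and 518, 419 and 331 CPM after methamphetamine. Of 18 tested, 0 had an unadjusted p below 0.05, and their log2 fold changes ran from -0.25 to 1.40. The members of Dlg4 had a summed 373, 336 and 375 CPM after saline and 245, 378 and 279 CPM after methamphetamine, again with overlap. For the members of Rbfox1 the sums were 610, 329 and 410 CPM after saline and 405, 482 and 375 CPM after methamphetamine. The highest member of each was modest beside the 10 listed above: 25.8 CPM in Pde10a (chr17:8809073-8809172, plus strand), 43.8 CPM in Dlg4 (chr11:70028543-70028642, plus strand) and 74.4 CPM in Rbfox1 (chr16:5960456-5960555, plus strand).

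Many members were adjacent or overlapping, and so were not independent. Overlapping members were joined, which left 3213 separate stretches. Members that only touch were kept as separate stretches, and 191 members started where another ended. The 48 stretches with more than 1 member held 116 members, the largest with 9 in the protocadherin gamma cluster, where alternative first exons share their introns. In Pde2a the 15 members came down to 8 stretches.

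The intron label was checked against GENCODE M21. Of the 3281 members, 92.1% had their centre in an intron of the host gene with no annotated exon on that strand. The centre of 158 members lay in an exon of some transcript on the same strand, in 118 of them a retained intron. For 89 members the only intron was in a gene on the other strand, such as those in Plod2 and Ibtk, 2 of the 3 members with the highest signal in the methamphetamine list (5.90 and 5.61). A gene on the other strand overlapped 261 members. Small RNA genes on the same strand overlapped 7, and 1 of these was on the mitochondrial genome, over mt-Nd2 and the tRNA gene mt-Tw. Mitochondrial genes have no introns, so that member goes against the label.

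Members lay in introns of all lengths and were more often closer to the 5′ than to the 3′ splice site. Of 3152 members with an annotated intron, 449 were in introns under 1000 nt and 389 in introns over 100000 nt, with a median of 7419 nt. Ends were named by the strand of the peak. The 5′ and 3′ ends are therefore exchanged for any of the 89 members whose only intron was in a gene on the other strand. By this naming the nearer end was the 5′ splice site for 59.9% of members. It was so for 59.9% of intron positions of the methamphetamine list only and 57.1% of those of the saline list only. Within 250 nt of either splice site lay 24.4% of the members (Wilson 95% interval 22.9 to 25.9), 559 of them near the 5′ and 344 near the 3′ site, where a member in a short intron can be near both. The share was 27.4% (25.9 to 28.9) for intron positions of the methamphetamine list only and 22% (20.6 to 23.4) for those of the saline list only, so the shared positions lay between the 2. By the authors' intron types, 59.6% of members were distal, against 56.7% and 63.1% of positions of 1 list. These differences were not tested.

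Host genes were more highly expressed than the median gene, and the authors' signal was higher where the host was weakly expressed. The median RNA level was 4.92 log2 CPM over 2105 host genes and 3.44 over all 18208 genes. Hosts of intron positions in 1 list only had higher medians than the members' hosts. These were 5.50 log2 CPM for the methamphetamine list (2275 genes) and 5.20 for the saline list (2414 genes). The authors' signal in the saline list had a median of 3.05 for members with a host below 0 log2 CPM (n = 142) and 1.44 for those with a host at 8 or more (n = 598). Across 3182 members, Spearman's rho between host RNA level and signal was -0.53 in both lists, and that with mean CLIP CPM was -0.21. Members share libraries and often a host gene, so these describe the lists and carry no p. How the signal relates to the input is not stated in the lists.

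The members with the highest signals were mostly, but not all, in genes with little RNA. In the saline list the highest signals were those of members in Zg16, a gene of secretory granules (5.61), Olfr1333, an olfactory receptor gene (5.43), and Acmsd, an enzyme gene of tryptophan breakdown (5.39). The RNA levels of these hosts were -0.15, -2.62 and -1.15 log2 CPM. Their CLIP counts were small, and the Acmsd member had 0, 27 and 0 saline reads and 10, 0 and 1 methamphetamine reads, all in set B. In the methamphetamine list Dbf4, which activates a kinase of DNA replication, had a member with a signal of 5.62 and 72.6 to 168 CPM (chr5:8406174-8406273, minus strand), at a host RNA level of -0.62 log2 CPM. The Ibtk and Plod2 members of that list, both on the strand opposite to the gene, had host RNA levels of 4.13 and 0.53 log2 CPM. Their centres lay in annotated exons of other genes on the bound strand, 4933431K14Rik and Gm38391. These host levels are therefore not levels of RNA from the bound strand. Of the 33 highest members by CPM, 16 had a host below 2 log2 CPM or outside the RNA-seq table, as had 15.1% of all members.

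**Figure D5:**
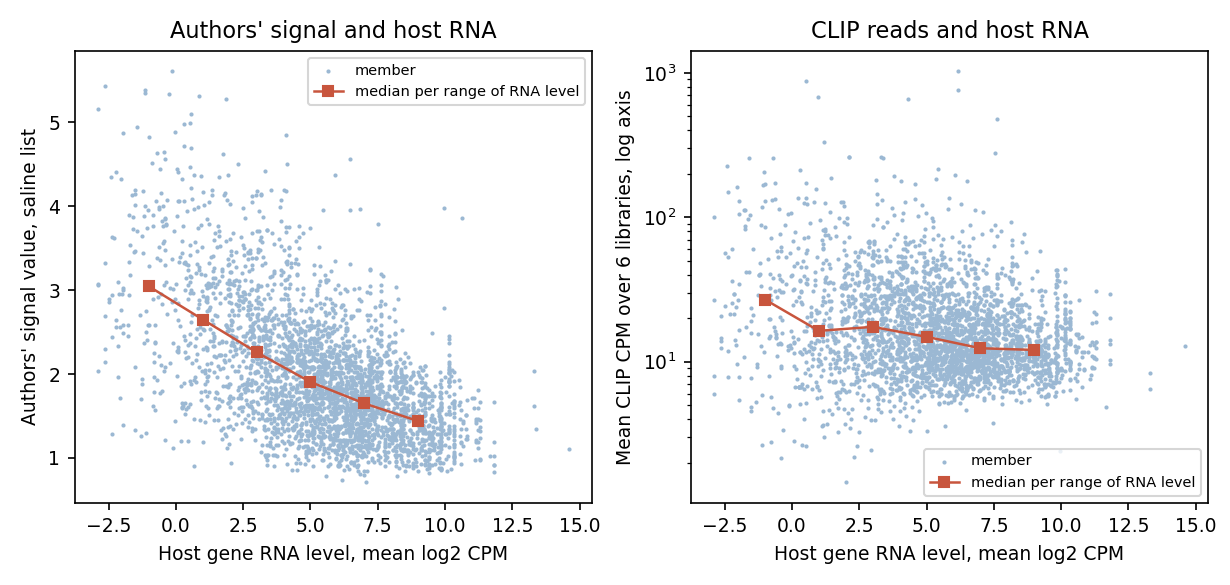
Each member's authors' signal in the saline list (left) and mean CLIP CPM over 6 libraries on a log axis (right) by the RNA level of its host gene in mean log2 CPM; red squares are medians per range of RNA level, the outermost standing for hosts below 0 and at 8 or more. The median signal goes from 3.05 to 1.44 and the median CPM from 26.9 to 12.1.

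No host gene passed the adjusted threshold for a difference in RNA level between treatments. With limma on all 18208 genes and Benjamini-Hochberg adjustment, 0 of 2105 host genes had an adjusted p below 0.05 (0.0% of all genes), and the smallest adjusted p was 0.9998. At an unadjusted p below 0.05 there were 24 host genes (1.14%), 14 higher and 10 lower, against 1.52% of all genes; edgeR on the recovered reads gave 0 and 17. Without saline replicate 2 the count was 102, without methamphetamine replicate 2 it was 98, without saline replicate 1 it was 10 and without methamphetamine replicate 3 it was 13. The median log2 fold change was 0.02 in host genes. In bulk tissue, fewer cells of a type and less RNA per cell cannot be told apart.

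The smallest p among host genes rested on few reads. Iqcm had 4, 1 and 2 saline reads and 0 in each methamphetamine library (limma unadjusted p = 0.00496, adjusted 0.9998), and the cytokine gene Il12b had 2, 1 and 1 against 0 in each. At this depth such counts allow no fold. Pip5k1b, a lipid kinase gene, had 18, 34 and 17 saline reads and 56, 53 and 46 methamphetamine reads, a log2 fold change of 0.97 ± 0.31 (SE; limma unadjusted p = 0.0112, adjusted 0.9998). Its groups did not overlap.

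The genes of hnRNP H itself held no shared intron peak. Hnrnph1 had 5.23, 5.06 and 4.74 log2 CPM after saline and 4.93, 4.92 and 4.97 after methamphetamine, a difference of -0.07 ± 0.19 (SE, limma). Hnrnph2 differed by 0.06 ± 0.27 (SE) on the same scale. Hnrnph1 and Hnrnph2 each held 0 members, their relative Hnrnph3 held 3, and Hnrnpf held 1 (chr6:117919625-117919724, plus strand), 310 nt from a 5′ splice site, with 4.1 to 13.4 CPM. Hnrnpf differed by 0.21 ± 0.21 (SE, limma) in RNA level, and each of these 3 differences was smaller than its standard error.

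Members were counted in 6 gene lists. By comparison, 11.6% of all genes in the RNA-seq table held a member, and 22.6% of the 3184 genes at or above 6 log2 CPM did. The lists were chosen with earlier results of these data known, and gene length was not taken into account. The shares are therefore descriptions, and their differences were not tested. Among splicing regulators 18 of 52 genes (34.6%) held 53 members, led by Rbfox1 with 15 and the neuronal RNA-binding protein gene Celf5 with 10. The Srsf6 member shown above had the highest level there, with 140, 154 and 139 CPM after saline and 270, 206 and 161 CPM after methamphetamine, so its groups did not overlap (log2 fold change 0.81 ± 0.41, SE; edgeR unadjusted p = 0.0868, adjusted 0.9998). Another of the list, Celf3, had a member 70 nt from a 5′ splice site with 18 overlapping starts of GGG (chr3:94478396-94478495, plus strand), which was exceeded only by the 19 of a Cln3 member, in a lysosomal membrane protein gene (chr7:126583208-126583307, minus strand). Their sequences are not printed.

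Synaptic scaffolds and adhesion genes held a member in 30 of 41 cases (73.2%), with 83 members in all. Dlg4 held 15 and Nrxn3, a presynaptic adhesion gene, held 6. Among glutamate and GABA receptor genes 18 of 39 (46.2%) held 41 members, with 8 in Gabbr1, a subunit of the metabotropic GABA receptor.

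Of the voltage-gated channel genes with RNA values 18 of 41 (43.9%) held 26 members, no gene more than 3. The highest, in the potassium channel gene Kcnq5 (chr1:21841204-21841303, minus strand), had 76.0, 7.1 and 88.1 CPM after saline and 18.7, 72.5 and 31.9 CPM after methamphetamine, higher in set A than in set B. Cytoskeleton and calmodulin kinase genes held members in 13 of 25 cases (52.0%), with 14 of 42 members in Sptbn4. The highest was in the ankyrin gene Ank1 (chr8:23002545-23002644, plus strand), at 47.0 to 64.2 CPM in all 6 libraries.

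Dopamine and cAMP signalling genes of the striatum held a member in 14 of 36 cases (38.9%), with 82 members in all, 27 of them in Pde10a and 15 in Pde2a. Adcy5, the striatal adenylyl cyclase, and Rgs9, which limits dopamine receptor signalling, held 6 each. The highest member lay in the transcription factor gene Foxp1 (chr6:99339285-99339384, minus strand), with 103, 104 and 117 CPM after saline and 60.5, 97.0 and 72.2 CPM after methamphetamine. These groups did not overlap, but the log2 fold change of -0.32 ± 0.32 (SE) had an edgeR unadjusted p of 0.343 (adjusted 0.9998).

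Over the 6 lists, the edgeR fit gave an unadjusted p below 0.05 for 1 of the 64 members tested in the dopamine and cAMP list and for 0 of those tested in each of the other 5, against 3.35% of all positions. The median log2 fold change of the members tested was 0.18 for splicing regulators (n = 41), 0.04 for scaffolds (n = 68), -0.04 for receptors (n = 24), -0.16 for channels (n = 18), 0.19 for dopamine and cAMP genes (n = 64) and 0.21 for cytoskeleton genes (n = 30). Over all positions tested it was 0.05. In RNA level, limma gave an unadjusted p below 0.05 for 1 channel gene and for 0 genes of the other lists. The median RNA log2 fold change was -0.18 in the dopamine and cAMP list, where 5 of 36 genes were above 0, and between -0.05 and 0.02 in the other 5 lists. The striatal markers used above are part of that list, and their summed level followed the library sets, with 9082 to 12809 CPM after saline and 8165 to 11244 CPM after methamphetamine. Their part in that median was not tested.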

How the data were processed

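CLIP-seq and RNA-seq of wild-type mouse striatum were used, 3 pooled replicates per treatment in each assay. Per the submitters' processing notes, the tools were Trimmomatic, UMI-tools, STAR, bedtools, Subread featureCounts, limma and edgeR on mm10 (GRCm38); the peak caller is not given in the sources used here, nor is whether counts are of unique molecules. The authors deposited whole-number read counts per position for the CLIP libraries, in 101-nt windows per the file headers. Of 172271 lines, 24597 repeated another and 236 more gave a position already listed, with the same counts, under another name; 147438 distinct positions were each used once. The deposited peak lists, 1 per treatment, hold a signal score of unstated scale, and p-values and q-values per the file headers. The deposited RNA-seq values are log2 CPM, which inverted to whole reads (offset 0.5 reads, tolerance 0.02 reads) for 100% of values.

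CLIP counts were tested over all positions by the quasi-likelihood test of edgeR 4.0.16, after filterByExpr and TMM scaling, with DESeq2 1.42.0 as an alternative, and RNA levels over all genes with limma 3.58.1 (eBayes with trend), in R 4.3.3, with Benjamini-Hochberg adjustment at 0.05. Shares per library were compared by exact permutation tests (scipy 1.17.1). CPM in the text is a library's reads at a position divided by its reads at all positions of the count table, times 1000000, unless called TMM-scaled. A host gene is the gene whose intron holds the peak centre, on the same strand where there is one. Splice-site distances are to the shortest GENCODE M21 intron over the centre, with its ends named by the strand of the peak. Coordinates are 1-based on GRCm38. Promoter windows are from RefSeq. Steps were tested on simulated data. Intervals cover counting error only.

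The members, the gene lists and the named-gene rule were chosen with earlier results of these data known. Named were the 10 members with the highest mean CPM, the 3 highest by signal in each list, the 3 smallest p in each direction, the 3 with the most GGG starts, the 3 highest near a 5′ splice site, the top host genes, the highest member of each list and the genes of hnRNP H and F. Some items that this rule names are not reported here. Each pool drew on several litters, and whether pools shared litters is not given in the sources used here; p-values measure the spread between these pools.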

Additional observations from a re-analysis of the deposited data

How the results depend on the processing

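No alternative that kept the count filter gave a member or a host gene past the adjusted threshold; without the filter 10 members passed in CLIP. With the replicate block, edgeR called 0 members (6 at an unadjusted p) and limma 0 host genes (13 at an unadjusted p). Between libraries with the same replicate number, deviations from the group means correlated at -0.358, -0.539 and -0.0905 in CLIP. In RNA-seq they correlated at -0.346, -0.821 and -0.489. Each such pair joined libraries of opposite sets, so these values cannot show whether equal numbers shared any processing. With the library set as a term, 28 members and 56 host genes had an unadjusted p below 0.05. Leaving out each replicate gave 13 to 76 members and 10 to 102 host genes at that level. The difference in the share of reads in members ran from -1.47 to -0.147 percentage points over the replicates left out, was 0.453 within set A, -2.11 of reads in listed positions and -0.879 without the Phb2 members, an alternative chosen after seeing the data, as was keeping 1 member per stretch (-0.802). That of reads in members with GGGG ran from 2.29 to 7.18, and with CCCC in its place it was -3.03. That of the 1% highest members ran from -1.74 to 3.66 over the replicates left out and was -5.56 within set B. GGGG was present in 80.6% of members with 50 nt added on each side, 36.8% of members lay within 500 nt of a splice site, and 92.1% were in a GENCODE intron free of exons. The cause of these shifts was not tested. Sequence for 5.64% of the members and depth, with a median of 5 reads per member in saline replicate 2, limit these values.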
